A study of Danio rerio with 3 samples.

Results

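The ribosomal protein genes of the zebrafish retina were taken by symbol. A gene was a member when its symbol began with rpl, rps or rplp followed by a digit, or was rpsa, and the rps6k kinase genes were left out. This gave 83 of the 27773 genes in the matrices. They carry 82 symbols, since a pair of identifiers shares the symbol rpl37, and by their symbols 48 are of the large and 34 of the small ribosomal subunit. The 48 include rpl7l1 and the second rpl37 identifier, both of which are described apart below. The remaining member, rps19bp1, encodes by its name a binding protein of Rps19 and no ribosomal protein.

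Retinal cells of larvae at 9 days post-fertilisation (dpf) were sorted for gfap:GFP, which is driven by a promoter of Müller glia. The green protein outlasts the promoter's activity and so also labels cells that derive from the glia. Each of 3 conditions gave 1 droplet-based library that counts the 3′ ends of RNA by unique molecular identifiers (UMIs). The no ablation control was Tg(her4.1:dRFP/gfap:GFP), the Lws2-ablation line carried lws2:nfsb-mCherry in addition, and the Sws2-ablation line carried sws2:nfsb-mCherry. The nfsb transgene encodes a bacterial nitroreductase that turns metronidazole into a toxin, in red cones under lws2 and in blue cones under sws2. All groups, the control included, received 10 mM metronidazole for 48 h from 6 dpf and were rinsed at 8 dpf, so that cells were taken at 3 days post-injury (dpi). Retinae were pooled within a library, and the number of larvae is not given in the sources used here.

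The cells that passed the filters numbered 8190 in the no ablation control, 10430 in Lws2-ablation and 7851 in Sws2-ablation. The median cell held 4390.5, 5905 and 5034 UMIs. Below, 3 values in a row stand for these libraries in this order. RNA of the EGFP reporter was found in 68.1% and 51.1% of the cells of the first and second library but in 40 of the 7851 cells (0.509%) of the third, which goes against its description as a gfap:GFP line, hence the wording “library labelled Sws2-ablation”. Between 17 and 29 cell barcodes were shared by any pair of libraries. With 1 library per condition there is no replicate check and no test, and the 95% exact intervals in the text cover counting error only. The sources name more than 1 kit version without saying which library used which. Any difference of kit, the line and the ablation cannot be told apart between libraries.

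A ribosome consists of a small subunit, which reads the mRNA, and a large subunit, which joins amino acids. Every ribosome needs 1 copy of nearly each ribosomal protein, with the acidic stalk proteins as the exception, and their genes are accordingly expressed together. In vertebrates their mRNAs share a pyrimidine-rich 5′ end that ties their translation to growth signals, so that the amount of mRNA and the rate at which it is translated can differ. Müller glia are quiescent radial glia of the retina that, in zebrafish, re-enter the cell cycle after neurons are lost and give rise to precursors of new neurons.

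Cells were clustered over all 3 libraries with the members left out of the features, and clusters were named from fixed marker genes as resting glia-like, transitional glia-like, cycling glia-like, neurogenic precursor-like and neuron-like. They are called resting, transitional and cycling glia, precursors and neurons here. Resting glia numbered 5004, 2763 and 2703 cells, transitional glia 941, 1094 and 1274, cycling glia 543, 2102 and 1628, precursors 120, 473 and 350, and neurons 1543, 3943 and 1889. The glutamine synthetase gene glula, a marker of resting glia, stood at 18778, 10093 and 5641 CPM, its UMIs scaled to the same total in each class and library, in resting glia and at 1066, 338 and 174 CPM in cycling glia. It was also at 5692 CPM in neurons of the no ablation control, against 974.5 and 504 CPM in the other libraries, and the part of such glial RNA in the values for neurons was not tested. The 12 transitional markers summed to 56524, 46242 and 54991 CPM in resting glia and to 70794, 70141 and 45925 CPM in transitional glia. Their sum was thus lower in transitional glia of the library labelled Sws2-ablation. The transitional clusters were named by the number of raised markers, 11 and 6, and not by this sum.

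Ribosomal protein genes took a larger share of the RNA in transitional and cycling glia than in resting glia in each library. In the no ablation control they gave 14.8% of the UMIs of resting glia, 26.6% of those of transitional glia and 38.0% of those of cycling glia. In Lws2-ablation the shares were 18.7%, 34.9% and 38.5%. In the library labelled Sws2-ablation they were 26.1%, 46.2% and 47.3%. From resting to transitional glia the summed share was 1.80-, 1.87- and 1.77-fold higher, and from resting to cycling glia 2.57-, 2.06- and 1.81-fold. As means over cells, which weight each cell alike, the shares were 13.8%, 17.9% and 26.9% in resting glia and 23.1%, 31.3% and 38.5% in transitional glia, so that the first step was smallest in the library labelled Sws2-ablation. Over all settings that step lay between 0.52 and 1.28 there on the log2 scale. Counting error was small beside these differences, with intervals such as 37.96 to 38.03% for cycling glia of the control.

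**Figure D1:**
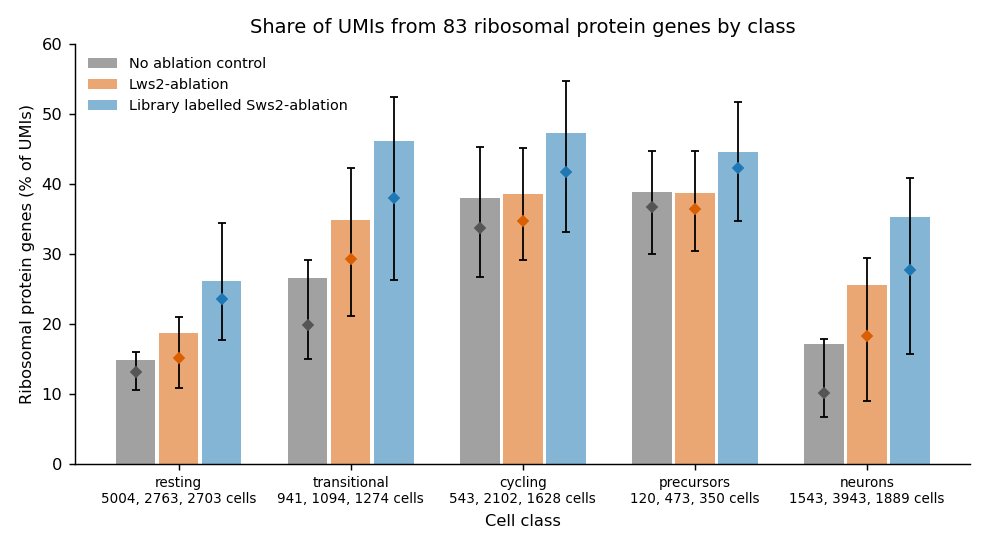
Share of UMIs from the ribosomal protein genes (percent, vertical axis) in 5 cell classes, with bars for the summed UMIs of a library, diamonds for the median cell and lines for the quartiles over cells. The bars were lowest in resting glia (14.8, 18.7 and 26.1%), and transitional glia stood between resting and cycling glia. In the control the diamond of neurons (10.0%) lay below that of resting glia (13.1%).

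The share also varied between the cells of a class. The median cell of resting glia had 13.1%, 15.0% and 23.5% of its UMIs from the members, and the quartiles of the cells lay between 10.5 and 15.96% in the control but between 17.7 and 34.4% where the label was Sws2-ablation. For cycling glia the median cell had 33.7%, 34.7% and 41.7%. In all 3 libraries the lower quartile of cycling glia (26.7%, 29.0% and 33.1%) lay above the median of resting glia. Both subunits moved together, and the UMIs of large-subunit genes were 1.33 to 1.41 times those of small-subunit genes in all 15 combinations of class and library.

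The higher share in cycling glia went with more messages of the members and also with more of all other messages per cell. The median cell of resting glia held 600, 959 and 1192 UMIs of the members, against 3608, 4342 and 4836.5 in cycling glia. For all other genes the medians were 3987.5, 5213 and 3801 UMIs in resting glia and 6780, 7583 and 6322 in cycling glia. Transitional glia differed in this respect. Their median cell held 774, 1688.5 and 1764.5 UMIs of the members, while the UMIs of all other genes (2939, 3825 and 2918.5) were fewer than in resting glia. UMIs per cell also depend on how efficiently a droplet captured its RNA, which was not measured apart.

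Depth per cell moved with the share inside some classes. When transitional glia of each library were split by their UMIs into 3 equal groups, the share went from 17.4 to 32.7%, from 25.2 to 40.3% and from 28.2 to 54.1% between the shallowest and the deepest group. Cycling glia went from 30.3 to 41.6%, from 33.8 to 40.9% and from 38.3 to 51.3%. Resting glia did not follow the same order in each library: the share was 13.02% in the shallowest and 16.2% in the deepest group of the control, but 20.4 and 19.4% in Lws2-ablation and 30.7 and 25.3% in the library labelled Sws2-ablation. The part of depth in the differences between classes was not tested.

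The classes were not uniform. Among the cycling clusters, a cluster led by replication genes such as mcm4 together with foxn4 had the highest share, 50.1%, 50.0% and 57.0%, whereas another cluster led by mcm2 and mcm5 had 30.6%, 33.6% and 37.7%. The cluster with genes of G2 and mitosis, led by nusap1, lay between them at 39.0%, 36.7% and 44.5%. Transitional glia fell into 2 clusters that lay far apart. The cluster led by tjp2b and cldn5b, with her12 among its leading genes, had 19.6%, 26.6% and 34.1%, and the one led by igfbp5b and cyp24a1, with olig2 among its leading genes, had 41.3%, 46.2% and 54.9%. The latter held 25.8%, 37.8% and 47.5% of the transitional cells, so the class had a different make-up in each library. The paper describes cells of the uninjured retina with igfbp5b and her4.1 as immature Müller glia. Whether transitional cells were immature or had left the resting state was not tested. Within resting glia, a small cluster of 50, 74 and 39 cells had the highest share, 38.4%, 46.8% and 48.2%, near that of cycling glia. It was named resting from 3 markers, cx43, atp1a1b and ptgdsb.1, and glula was not among them. A larger cluster led by ifi45 and rgs5b, with cxcl18b among its leading genes, held 21.3%, 24.6% and 26.3% of the resting cells (1067, 679 and 711). Its share was 17.1%, 19.6% and 25.4%. It was named resting from 8 markers of resting glia against 7 of transitional glia, so its place in the class is narrow. A shallow resting cluster led by txn and flot1b (507, 601 and 870 cells) stood at 18.03%, 32.9% and 41.9%. Leaving it out changed the log2 ratio of cycling over resting glia to 1.38, 1.17 and 1.04.

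Nearly every member was higher in transitional than in resting glia. With genes counted when they had at least 50 CPM and 20 UMIs in one of the classes, 73 of 80, 77 of 80 and 74 of 81 members were at least 1.5-fold higher in transitional than in resting glia, where 13.6%, 13.2% and 11.3% of all such genes were. The median log2 ratio of the members was 0.85, 0.91 and 0.82, against −0.21, −0.26 and −0.62 over all genes tested. For cycling over resting glia 77 of 80, 77 of 80 and 74 of 81 members passed 1.5-fold, where 27%, 31.3% and 25.4% of all genes did, with medians of 1.31, 1.04 and 0.85 against −0.33, −0.27 and −0.50. Lower by as much were 1, 2 and 2 members at the first step, where 30.3%, 34.5% and 52.1% of all genes were, and 0, 1 and 1 members in cycling glia, where 44.1%, 44.3% and 47.4% were. As many as 71 of 80 members passed in all 3 libraries for transitional glia and 74 of 80 for cycling glia. How many of all genes passed in all 3 was not counted. Because CPM is a share of all UMIs and the members are a large part of it, leaving them out of the total raised every ratio of cycling over resting glia by 0.46, 0.40 and 0.49.

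**Figure D2:**
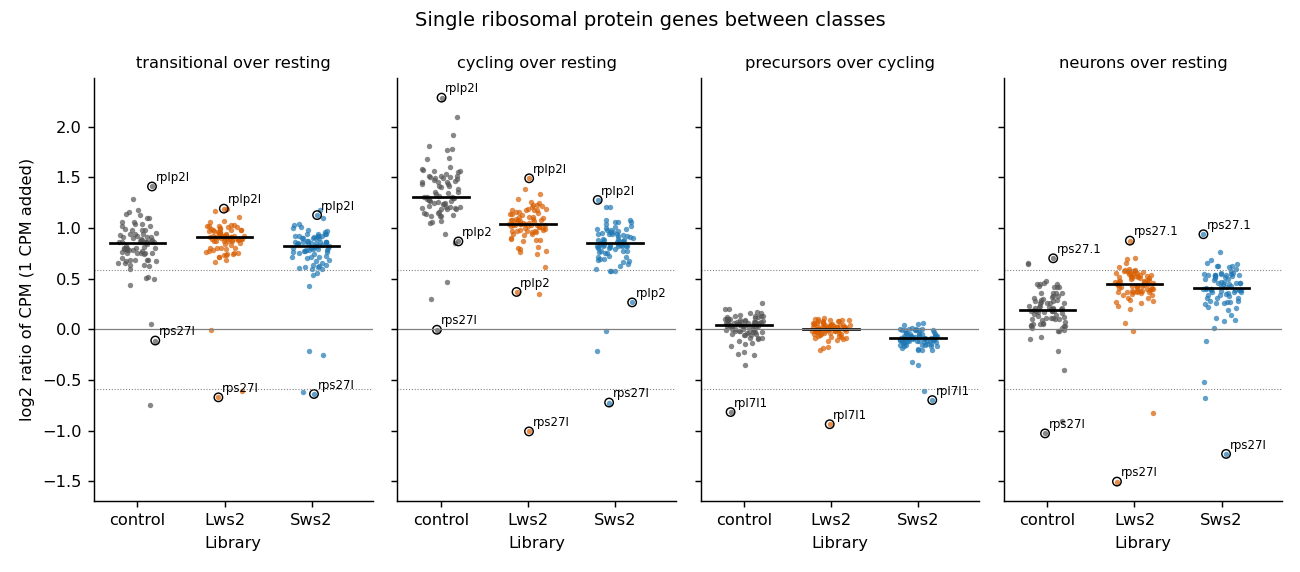
Log2 ratio of CPM (vertical axis) between cell classes for each member that passed the filter, with 1 point per member, black lines at the medians and dotted lines at 1.5-fold. For cycling over resting glia most members lie near the medians of 1.31, 1.04 and 0.85, with rplp2l above them and rps27l below.

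Single members showed the same order of classes. Rplp0 is the core of the ribosomal stalk, the arm of the large subunit that recruits translation factors. Its gene stood at 2164, 3007.5 and 3481 CPM in resting glia, at 4386, 5594 and 6038 CPM in transitional glia and at 6948, 6690 and 6469 CPM in cycling glia. The 3 libraries were closer to each other in cycling glia than in resting or transitional glia. rpsa, the gene of a small-subunit protein also known as the laminin receptor, had 2084, 2744 and 3080 CPM in resting and 6251, 5664 and 5521 CPM in cycling glia. rps6, whose protein is phosphorylated downstream of mTOR, rose from 1118, 1408 and 1870 CPM to 3325, 3296 and 3897 CPM. rps19, a gene mutated in human Diamond-Blackfan anaemia, went from 2012, 2673 and 3827 CPM to 5836, 6060 and 7587 CPM. These genes all passed 1.5-fold for both steps in each library.

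Among the large-subunit genes, rpl3, whose protein lies close to the peptidyl transferase centre, was the lowest at the first step by the median of the libraries apart from rpl7l1, described further on. It was 0.44, 0.81 and 0.43 higher on the log2 scale in transitional than in resting glia and 1.28, 1.04 and 0.71 higher in cycling glia. rpl10, encoding a protein that joins the large subunit late in its maturation, was 1.02, 1.06 and 1.03 higher in transitional glia and 1.51, 1.18 and 1.04 higher in cycling glia. rpl10a was at 0.76, 0.80 and 0.82 and at 1.252, 0.97 and 0.83. The small-subunit gene rps12 was among the highest for both, with 1.28, 1.19 and 1.17 and then 1.92, 1.34 and 1.21. Log2 ratios of rps12 above 1 at both steps in all libraries correspond to levels of 2449, 3202 and 4368 CPM in resting and 9246, 8106 and 10110 CPM in cycling glia.

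Members could also be ranked by their ratios in each library. Over the 80 members tested in all libraries, the ratios of cycling over resting glia correlated with Pearson's r of 0.85 between the control and Lws2-ablation and 0.97 between the ablation libraries. Spearman's rho was 0.86 and 0.95 for the same pairs. Ranks were less alike for some other steps. For transitional over resting glia rho was 0.69 between the control and the library labelled Sws2-ablation. For precursors over cycling glia it was 0.68 and 0.63 between the control and the others. For neurons over resting glia it was 0.87 and 0.82 between the control and the others, and 0.90 between the ablation libraries. These are descriptions across genes, which are not independent of each other.

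The acidic stalk genes diverged. Rplp1 and Rplp2 bind Rplp0 as dimers at the tip of the stalk. The zebrafish files hold both rplp2 and the related rplp2l. By the median of the libraries, rplp2l had the highest ratio of all members for cycling glia. For transitional glia its median of 1.191 was level with the 1.190 of rps12. rplp2l stood at 1454, 2612 and 4104 CPM in resting glia, 3863, 5963 and 8966 CPM in transitional glia and 7092, 7339 and 9945 CPM in cycling glia. rplp2 stood at 1024, 1924 and 2798 CPM in resting glia, 1929, 3047 and 4107 CPM in transitional glia and only 1869, 2485 and 3365 CPM in cycling glia. The cycling over resting ratio was thus 2.29, 1.49 and 1.28 for rplp2l and 0.87, 0.37 and 0.27 for rplp2. Of the UMIs of both genes, rplp2l gave 58.7%, 57.6% and 59.46% in resting glia, 66.7%, 66.2% and 68.6% in transitional glia and 79.1%, 74.7% and 74.7% in cycling glia. rplp1 was 1.78, 1.26 and 1.08 higher in cycling than in resting glia.

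**Figure D3:**
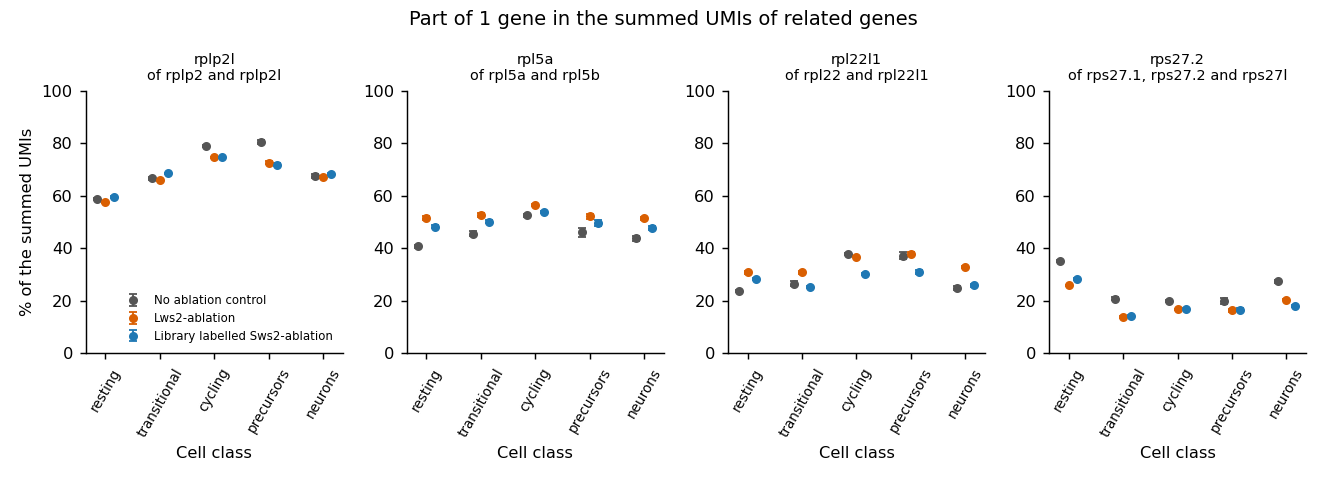
Percent of the summed UMIs of related ribosomal protein genes that came from the gene named first (vertical axis), by cell class, with 1 point per library and bars for 95% binomial intervals. The part of rplp2l went from 57.6 to 59.46% in resting glia up to 74.7 to 79.1% in cycling glia, and the part of rps27.2 was highest in resting glia.

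Genes of the 5S particle also differed within a pair. Rpl5 and Rpl11 bind 5S rRNA before it enters the large subunit and, in human cells, hold back the p53 regulator MDM2 when assembly fails. The fish has rpl5a and rpl5b. rpl5a was 1.81, 1.39 and 1.21 higher in cycling than in resting glia, and rpl5b was 1.12, 1.09 and 0.88 higher. The part of rpl5a in the UMIs of the pair was 40.7%, 51.5% and 48.2% in resting glia, so the libraries differed there, and 52.6%, 56.6% and 53.9% in cycling glia. In precursors rpl5a was lower than in cycling glia by a log2 ratio of −0.24, −0.20 and −0.32, while rpl5b was at 0.14, 0.06 and −0.07. rpl11 rose more than most members. Its log2 ratios were 1.102, 1.07 and 1.04 for transitional and 1.69, 1.22 and 1.08 for cycling over resting glia. At both steps these lay above the upper quartile of the members tested in each library.

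For rpl22 and rpl22l1 the libraries were less alike. Rpl22 and its paralogue Rpl22l1 occupy the same place in the large subunit and, in mice, Rpl22 represses the Rpl22l1 mRNA. rpl22l1 was 2.098, 1.29 and 0.92 higher in cycling than in resting glia, against 1.14, 0.91 and 0.79 for rpl22. The part of rpl22l1 in the pair went from 23.9 to 37.8% between resting and cycling glia of the control and from 30.8 to 36.7% in Lws2-ablation, but only from 28.3 to 30.2% in the library labelled Sws2-ablation. In transitional glia of that library it was 25.2%, below resting glia.

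The rps27 genes ran in different directions. Rps27 is a zinc-binding protein of the small subunit, and the files hold rps27.1, rps27.2 and rps27l. rps27.1 was 1.14, 1.17 and 1.096 higher in transitional than in resting glia and 1.46, 1.22 and 0.99 higher in cycling glia. rps27.2 stood at 957, 760 and 1186 CPM in resting glia and at 994, 759 and 1021 CPM in transitional glia, and passed 1.5-fold at neither step in any library. Its part in the UMIs of the 3 genes went from 35.2%, 25.8% and 28.3% in resting glia to 20.9%, 13.9% and 14.2% in transitional glia.

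rps27l had the lowest ratio of all members for cycling over resting glia. In human cells its counterpart RPS27L is a direct target of p53. rps27l stood at 92.2, 137 and 165 CPM in resting glia, 85.3, 85.7 and 106 CPM in transitional glia, 91.95, 67.7 and 99.5 CPM in cycling glia and 44.8, 47.8 and 69.7 CPM in neurons. The ratio of cycling over resting glia was −0.00, −1.01 and −0.72, so that the fall past 1.5-fold was present in both ablation libraries and not in the control. With the members left out of the total the same ratios were 0.45, −0.61 and −0.24. On that scale the ratio of the control turned positive, and only that of Lws2-ablation was still past 1.5-fold lower. Against resting glia, rps27l was lower in neurons in every library, at −1.03, −1.501 and −1.23.

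rpl7l1 followed yet another order. Its counterparts in yeast and human cells take part in the assembly of the large subunit and are not part of the mature ribosome. rpl7l1 stood at 78.9, 58.1 and 66.0 CPM in resting glia and at 46.5, 37.8 and 55.2 CPM in transitional glia, and was highest in cycling glia at 109, 89.9 and 98.9 CPM. It was lower again in precursors at 61.7, 46.5 and 60.6 CPM. The log2 ratios were −0.75, −0.61 and −0.25 for transitional over resting, 0.47, 0.62 and 0.58 for cycling over resting, and −0.82, −0.94 and −0.70 for precursors over cycling glia. It was the only member at least 1.5-fold lower in precursors than in cycling glia in all 3 libraries.

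The other members with related symbols gave less contrast or too few UMIs. rps26 and rps26l both rose, by 1.197, 0.88 and 0.66 and by 1.43, 1.16 and 1.06 for cycling over resting glia. rps8b had 120 UMIs in all cells, against 741067 for rps8a, and no ratio is given for it. The second identifier with the symbol rpl37 had 2376 UMIs, never passed the filter, and is named COA1 in the reference table of gene names. rps19bp1 stood at 31.8 to 55.8 CPM in all classes and libraries and passed the filter in 7 of 22 comparisons. rpl36a was 1.31, 1.03 and 0.81 higher in cycling than in resting glia. How reads that fit several near-identical copies were counted bears on all these pairs, so the division between copies is uncertain.

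Genes outside the rule whose products belong to the ribosome or join the nascent chain moved as most members did. RPL37A, written in capitals in the files, was 0.90, 0.87 and 0.73 higher in transitional and 1.24, 0.91 and 0.68 higher in cycling than in resting glia. rack1, encoding a scaffold on the small subunit, was 1.57, 1.195 and 1.03 higher in cycling glia. Of the list of partners, among them faua, faub, rack1 and naca, 6 of 6, 6 of 7 and 6 of 7 genes tested were at least 1.5-fold higher in transitional glia. Of all genes 13.6%, 13.2% and 11.3% were. The exception in the list was faub, at 47.3, 76.0 and 58.4 CPM in resting and 28.2, 37.5 and 20.6 CPM in transitional glia.

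Genes that build ribosomes were higher in cycling glia. In CPM of all UMIs, their summed level was not raised in transitional glia as that of the members was. The list held 61 genes for rRNA transcription and ribosome assembly. Their summed level was 4036, 2742 and 3042 CPM in resting glia, 3269, 2684 and 3116 CPM in transitional glia and 6364, 5151 and 5331 CPM in cycling glia. Leaving the members out of the total raised every log2 ratio of transitional over resting glia by 0.21, 0.32 and 0.46. On that scale the sum of Lws2-ablation would be higher in transitional than in resting glia, so its direction depends on the total used. In the library labelled Sws2-ablation the sum was higher in transitional glia on either scale. Of those that passed the filter, 1 of 26, 1 of 12 and 2 of 12 were at least 1.5-fold higher in transitional than in resting glia, beside 13.6%, 13.2% and 11.3% of all genes, and 17, 2 and 3 were lower, beside 30.3%, 34.5% and 52.1%. For cycling over resting glia 15 of 32, 20 of 28 and 20 of 29 were higher, beside 27%, 31.3% and 25.4% of all genes, and none was lower, beside 44.1%, 44.3% and 47.4%. The medians were 0.52, 0.90 and 0.84.

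Examples from this list were picked after their values were seen. fbl encodes fibrillarin, which methylates rRNA. It stood at 136, 72.2 and 78.3 CPM in resting glia, 69.8, 46.1 and 46.5 CPM in transitional glia and 207, 162 and 146 CPM in cycling glia. npm1a, encoding the nucleolar chaperone nucleophosmin, went from 143, 91.3 and 69.1 CPM to 81.97, 84.4 and 49.8 CPM and then to 348, 299 and 198 CPM. dkc1, encoding the pseudouridine synthase dyskerin, was at 60.4, 40.5 and 35.4 CPM in resting and 181, 143 and 132 CPM in cycling glia. Each of these had its highest level in cycling glia. For transitional over resting glia the direction of npm1a and dkc1 was not secure in every library. Leaving the members out of the total raised every ratio by 0.21, 0.32 and 0.46. That is more than the −0.11 of npm1a in Lws2-ablation and the −0.38 of dkc1 in the library labelled Sws2-ablation. The ratios of fbl, −0.95, −0.64 and −0.74, exceeded these shifts in size in each library. nop56, for another snoRNP protein, was at −0.23, −0.17 and 0.33.

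Translation factors were also compared as a list. For transitional over resting glia 8 of 47, 11 of 43 and 8 of 45 translation factor genes were at least 1.5-fold higher and 10, 4 and 12 lower, where 13.6%, 13.2% and 11.3% of all genes were higher and 30.3%, 34.5% and 52.1% lower. For cycling over resting glia 24, 28 and 18 of 48 were higher and 4, 5 and 5 lower, where 27%, 31.3% and 25.4% and 44.1%, 44.3% and 47.4% of all genes were. eef1a1l1, which encodes the elongation factor that brings tRNA to the ribosome and was named after its values were seen, went from 4914, 5319 and 4953 CPM in resting to 6031, 8193 and 6293 CPM in transitional and 9988, 8963 and 7200 CPM in cycling glia. Of the genes for mitochondrial ribosomal proteins, which serve a separate ribosome, most of the 74 were too low to be compared. For cycling over resting glia 2 of 15, 10 of 19 and 6 of 17 were higher, beside 27%, 31.3% and 25.4% of all genes.

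Precursors, the cells with genes of early neurogenesis such as neurod4 and dlb, had nearly the ribosomal share of cycling glia. It was 38.8%, 38.6% and 44.6%, or 1.02-, 1.00- and 0.94-fold that of cycling glia. None of the members tested was at least 1.5-fold higher and 1, 1 and 2 were lower, where 19.5%, 20.8% and 16.2% of all genes were lower and 15.2%, 16% and 19.1% higher. The members that were lower were rpl7l1 in each library and rps27l in the library labelled Sws2-ablation. Of the assembly genes, 12 of 32, 22 of 28 and 15 of 29 were at least 1.5-fold lower in precursors. Their summed level in precursors was 5122, 3472 and 3791 CPM.

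Neurons were lower again. The share of the summed UMIs was 17.2%, 25.6% and 35.3%, which is 1.16-, 1.37- and 1.35-fold that of resting glia. The median neuron had 10.0%, 18.3% and 27.7%, against 13.1%, 15.0% and 23.5% in resting glia, so the control was lower by that measure. Means over cells of the control were 14.0% in neurons and 13.8% in resting glia. Split by UMIs into 3 equal groups, neurons went from 7.84 to 19.3%, from 11.5 to 29.2% and from 16.9 to 40.3% between the shallowest and the deepest group. Of the members tested, 3 of 80, 7 of 80 and 10 of 81 were at least 1.5-fold higher in neurons than in resting glia, fewer than the 35.1%, 37.7% and 30.8% of all genes. The median log2 ratios of 0.19, 0.45 and 0.41 stood beside medians of all genes of 0.24, 0.32 and 0.09. In each library 2 members were at least 1.5-fold lower, rps27l and rpl7l1, where 24.2%, 29.2% and 31% of all genes were. rps27.1 was highest with 0.70, 0.88 and 0.94, followed by rpl19 with 0.64, 0.70 and 0.76. rpl9 was at −0.40, −0.01 and −0.12. The class joins cells of very different share. A cluster of cabp5b and cabp2a cells, genes of mature bipolar cells, had 8.00%, 11.2% and 17.5%, whereas a cluster of photoreceptor lineage cells with crx and neurod1 among its markers had 33.8%, 39.7% and 47.4%. Cone cells led by opn1lw2 and arr3a had 14.9%, 18.7% and 28.4%, and cells with gnb3a and vsx1, genes of differentiating bipolar cells, had 25.8%, 31.8% and 41.1%.

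The glial cells were also placed in an order from resting to cycling, by a diffusion pseudotime that did not use the members, and cut into 20 bins of equal cell number. The order held 18052 cells and began in resting glia. The first bin had a ribosomal share of 12.1%, 12.4% and 20.2%. In bin 15, where most cells were transitional, it was 33.4%, 41.4% and 52.3%. The highest values were 44.2% in bin 17 of the control, 45.6% in bin 16 of Lws2-ablation and 54.2% in bin 16 of the library labelled Sws2-ablation. At the end of the order, among cells with cdk1 and other mitotic genes, it was 36.0%, 32.3% and 40.0%.

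Single members had their highest level near the same place. Of the members with at least 20 UMIs, 80 of 82, 79 of 83 and 71 of 83 were highest in bins 16 to 18. How many of all genes were highest there was not counted, so whether this place is particular to the members is not known. The assembly genes had their highest summed level 1 bin later than the members' share. Their level was 3931, 2675 and 3153 CPM in bin 1 and 3709, 3107 and 3538 CPM in bin 15, and was highest at 8113 CPM in bin 18 of the control and at 6976 and 6533 CPM in bin 17 of the other libraries. It was lowest at 2377 CPM in bin 2 of Lws2-ablation and 2747 CPM in bin 5 of the library labelled Sws2-ablation, and so was already above its lowest level by bin 15 in both. The bin of the members' highest share itself moved by 1 with doublets removed in the library labelled Sws2-ablation. Over all alternatives its end lay at 85 to 90% of the order in the control and at 80 to 85% in each ablation library. The gap of 1 bin to the assembly genes is no larger than this movement. Where the assembly genes were highest under the alternatives was not computed. The order was built from expression, so positions along it are not times.

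**Figure D4:**
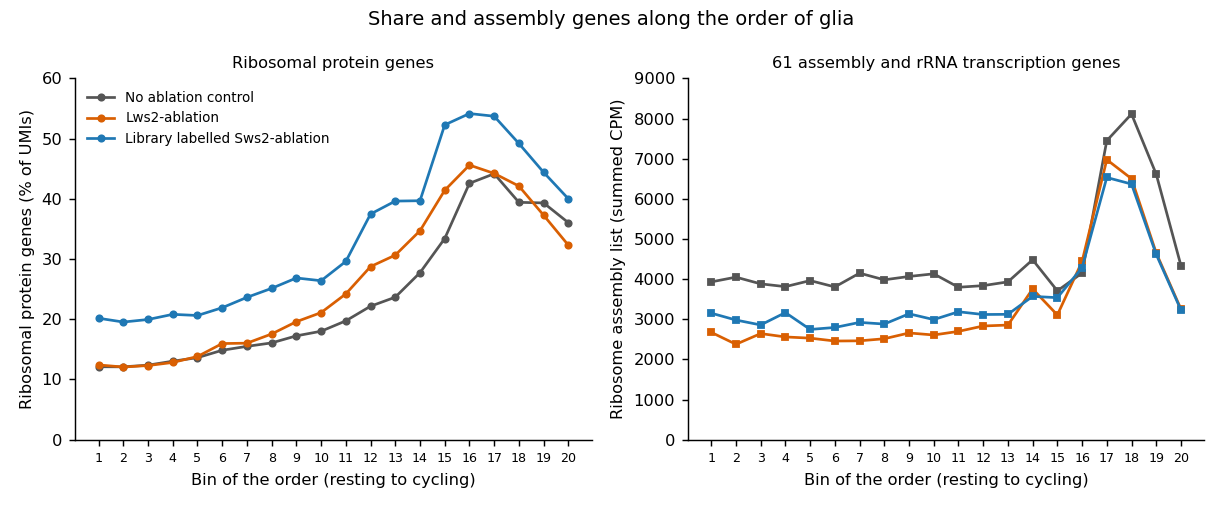
Share of UMIs from the ribosomal protein genes (percent) and summed CPM of the ribosome assembly genes in 20 bins along the order of glial cells, with 1 line per library. The share had risen to 33.4, 41.4 and 52.3% by bin 15, where the assembly genes stood at 3709, 3107 and 3538 CPM, and these were highest in bins 17 and 18. CPM is of all UMIs, the members included, so a rise of the members lowers it for other genes.

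The libraries differed most in resting glia, transitional glia and neurons. The ribosomal share of Lws2-ablation was 1.26-, 1.31- and 1.49-fold that of the control in these classes, and that of the library labelled Sws2-ablation was 1.76-, 1.74- and 2.06-fold. In cycling glia the ratios were 1.01 and 1.25, and in precursors 1.00 and 1.15. The make-up of the classes differed as well. The cabp5b neuron cluster of low share held 29.7%, 15.09% and 28.4% of the neurons, and a cluster led by scg2b and npas4a held 9.72%, 18.4% and 0.476%. Within the transitional clusters the folds over the control were 1.36 and 1.12 for Lws2-ablation and 1.74 and 1.33 for the library labelled Sws2-ablation, and the median over 8 neuron clusters was 1.24 and 1.65. For resting glia 7 of 80 members were at least 1.5-fold higher in Lws2-ablation than in the control, where 15.6% of all genes were, and 71 of 81 in the library labelled Sws2-ablation, where 16.4% were. In neurons 36 of 78 and 78 of 79 members were higher, where 15% and 10.9% of all genes were. In transitional glia 9 of 79 and 66 of 80 were, beside 12.5% and 6.9% of all genes. In cycling glia only 1 and 6 of 80 were, beside 9.15% and 3.42%, and in precursors 2 and 5 of 81, beside 13.3% and 5.67%. No member was at least 1.5-fold lower than in the control in any class, where 9.37% to 23.9% of all genes were in Lws2-ablation and 22.1% to 49.8% in the other library, with 40.4% in neurons. The ratios of the library labelled Sws2-ablation stood beside log2 medians over all genes of −0.21 in resting glia, −0.58 in transitional glia, −0.27 in cycling glia, −0.19 in precursors and −0.39 in neurons.

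The difference of the library labelled Sws2-ablation was present within clusters. In all 21 clusters with at least 20 cells of each library its share was above that of the control, by 1.14- to 2.32-fold. Lws2-ablation was above the control in 16 of 21 clusters, with folds from 0.939 to 1.93. In the largest resting cluster of the control, led by cyp26a1 and fgf24, the shares were 12.3%, 12.3% and 20.05%, so Lws2-ablation equalled the control there. Its higher share over the whole resting class stood beside the shallow txn cluster, where it was 1.83-fold that of the control. Without that cluster the log2 ratio over the control was 0.23 and 0.66, in place of 0.33 and 0.82. The medians of mitochondrial UMIs per resting cell were 0.992%, 1.89% and 1.79%, and with mitochondrial genes out of the total the log2 ratios in resting glia were 0.35 and 0.83. Depth differs with the library as well and its part was not tested. Which kit each library used is not given, and a difference of kit could not be told apart from the library.

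**Figure D5:**
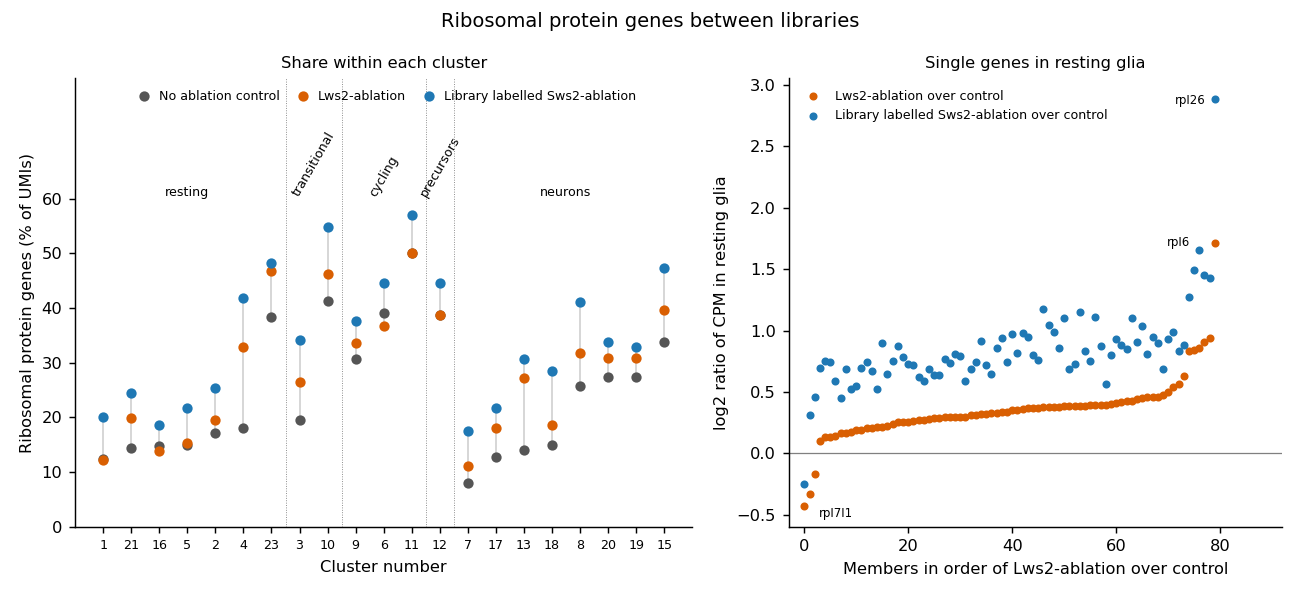
Left, share of UMIs from the ribosomal protein genes (percent) in each of 21 clusters, with 1 point per library, and right, log2 ratio of CPM over the control in resting glia for each member, ordered by Lws2-ablation. The points of the library labelled Sws2-ablation are the highest in every cluster, and rpl26 stands apart at 1.72 and 2.89.

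rpl26 differed from the other members between libraries. It encodes a protein near the exit of the large subunit's tunnel. rpl26 stood at 60.96, 203 and 458 CPM in resting glia, at 152, 414 and 811 CPM in cycling glia and at 63.9, 275 and 659 CPM in neurons. Within a library it behaved as the other members did, with 1.30, 1.03 and 0.82 for cycling over resting glia. Between libraries its log2 ratio over the control was 1.72 and 2.89 in resting glia, and the lowest over the 5 classes was 1.40 and 2.20. The order control, Lws2-ablation, Sws2-ablation held in all 21 clusters, whose levels ranged from 13.1 to 185 CPM, from 110 to 515 CPM and from 236 to 969 CPM. Whether the libraries differ in how reads of rpl26 were captured or counted was not tested.

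Among the next members between libraries in resting glia were rpl6, with 332, 604 and 1049 CPM, and the stalk genes rplp2 and rplp2l. Their log2 ratios were 0.86 and 1.66 for rpl6, 0.91 and 1.45 for rplp2 and 0.84 and 1.497 for rplp2l. At the low end rpl7l1 was at −0.43 and −0.25, rps27.2 at −0.33 and 0.31 and rpl5b at −0.17 and 0.46. Of the assembly genes in resting glia, 14 of the 26 that were tested were at least 1.5-fold lower than in the control in each of the ablation libraries, beside 16.5% and 30.8% of all genes, and none was higher.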

How the data were processed

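Per the labels, retinal cells were captured as 10x 3′ libraries. The authors deposited raw UMI counts per gene and cell; their processing notes name Cell Ranger 2.1.1 and GRCz11, whereas the matrix headers name Cell Ranger 3.0.2. By the study's own limits, cells of the control needed 200 to 3500 genes and at most 20% mitochondrial UMIs, with upper limits of 4500 genes and 35% for Lws2-ablation and 4000 genes and 30% for Sws2-ablation. This left 41397211, 74215043 and 51943376 UMIs. Seurat 5.3.0 in R 4.3.3 integrated the libraries on 2000 variable genes without the members (30 dimensions, 15 components, resolution 0.8). A cluster was named where at least 3 markers of a type were 2-fold higher in it. Scrublet's own threshold marked 3, 0 and 0 cells, too few to rely on for libraries of this size, and doublets were left in. An alternative removed the 537, 870 and 493 cells with the highest scores. The order was a diffusion pseudotime from scanpy 1.11.5 (15 neighbours, 10 components).

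Counts were summed per class and library. Log2 ratios had 1 CPM added, and genes with at least 50 CPM and 20 UMIs in one of the groups were compared at 1.5-fold. No model was fitted. Intervals are exact binomial or Poisson ones. The genes named are taken from the 5 highest and 5 lowest members per comparison, by the median of the libraries for classes, and in addition the stalk, 5S particle and paralogous genes and rpsa, rps6, rps19, rpl3, rpl10 and rpl10a. The members and lists were chosen with earlier results of these data known. Alternatives changed the integration, resolution, doublets, depth, filters and totals. Leaving out the shallow resting cluster, weighting clusters equally, taking members out of the total and ordering without the third library were chosen after seeing the data. All 83 identifiers were found in the reference table of gene names, and no genome of the files' build was used. Values of some genes are not reported here.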

Additional observations from a re-analysis of the deposited data

Results flagged for a closer look

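In 10 cases given here the log2 ratio of a member over the control was positive in one class and negative in another, with counting intervals on opposite sides of 0. With 1 library per condition the difference between classes was not tested, and no member is singled out by it.

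For Lws2-ablation over control, the stalk gene rplp0 was at 0.60 in neurons and −0.05 in cycling glia, rpl3 at 0.73 and −0.06, and rps6 at 0.60 in neurons and −0.09 in precursors. For the library labelled Sws2-ablation over control, the values were higher in neurons than in precursors. rplp0 was at 0.80 and −0.15, and rpl19 at 0.87 and −0.09. The large-subunit genes rpl3, rpl24 and rpl10a were at 0.88 and −0.06, at 0.77 and −0.06, and at 0.72 and −0.18. The small-subunit genes rpsa and rps12 were at 0.73 and −0.19, and at 1.03 and −0.11. All of these have a neuronal ratio past 1.5-fold and a value near 0 in cells of high ribosomal share.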

How the results depend on the processing

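The share ratios kept their direction for transitional, cycling and neuronal cells over resting glia and for either ablation library over the control in resting glia, transitional glia and neurons, under all 13 alternatives. The median cell was not among these alternatives, and in the control it was lower in neurons than in resting glia. Ratios near 0 changed sign: for precursors over cycling glia they were above 0 in 12, 11 and 2 of 14 settings, and for Lws2-ablation over the control in 11 of 14 in cycling glia and 4 of 14 in precursors.

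The log2 share ratios below are cycling over resting glia in the 3 libraries, then resting glia of Lws2-ablation and of Sws2-ablation over the control, where 1.36, 1.05, 0.86, 0.33 and 0.82 were reported. With members among the features they were 1.37, 1.05, 0.86, 0.34 and 0.83, and with pairwise integrations 1.5004, 1.35, 0.87, 0.14 and 0.90. In the pairwise integration of the control and Lws2-ablation, a cluster led by txn had under 3 markers and was left unnamed. Clusters led by gad1b (175 and 81 cells) and by arl13a and nr2e3 (46 and 207 cells) were also unnamed there. A cluster led by egr2b and rgs5b, with cxcl18b among its leading genes (607 and 550 cells), was named transitional. In the main clustering the cluster with these genes was resting. The part of each in the shifts was not tested. Without integration they were 1.38, 1.03, 0.87, 0.34 and 0.80. At resolution 0.4 they were 1.39, 1.13, 0.87, 0.28 and 0.84, and at 1.2 they were 1.42, 1.07, 0.89, 0.33 and 0.81. Removing doublets gave 1.39, 1.08, 0.90, 0.33 and 0.81, and thinning to 1000 UMIs, which weights cells alike as a mean over cells does and is no test of depth, gave 1.34, 1.01, 0.67, 0.38 and 0.95. Mitochondrial genes out of the total gave 1.37, 1.04, 0.85, 0.35 and 0.83. At least 500 genes per cell gave 0.88 for cycling over resting glia and 0.80 over the control in the third library. Means over cells were 1.36, 1.02, 0.66, 0.37 and 0.96. Chosen after seeing the data, leaving out the shallow resting cluster gave 1.38, 1.17, 1.04, 0.23 and 0.66, weighting clusters equally 1.11, 0.81, 0.70, 0.31 and 0.62, and leaving members out of the total 1.82, 1.45, 1.35, 0.40 and 1.02.

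At 2-fold in place of 1.5-fold the members higher in cycling than in resting glia were 12 in place of 74 in the third library, and those higher than the control in resting glia were 1 in place of 7 for Lws2-ablation and 13 in place of 71 for Sws2-ablation. The share of all genes past 2-fold was not counted, so whether the fall is particular to the members is not known. The causes were not tested. For the 76 ratios of named members past 1.5-fold, none of the 988 values under alternatives changed sign, and 48 came under 1.5-fold. The end of the bin with the highest share along the order moved by at most 1 bin of 20 under its alternatives. No paired analysis was possible because each condition has 1 library. Thinning left out 4 to 353 cells per class.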
